A study of Mus musculus with 9 samples.

Results

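The 10 genes Pmel, Tyr, Tyrp1, Dct, Mlana, Mitf, Oca2, Slc45a2, Mc1r and Kit, which mark melanocytes and make or direct pigment, were followed in mouse ear RNA. They were taken by name, through the Ensembl identifiers of the rows, from a table of 55401 features, and each of the 10 names matched 1 row. The series holds 9 libraries of polyadenylated RNA from ears of C57 mice, 3 per group. The controls were treated with absolute ethyl alcohol. The second group received MC903 (calcipotriol), a vitamin D analogue that is applied to mouse skin as a model of atopic dermatitis, and the third received MC903 and paeonol, a phenol of peony root bark, at 200 mg/kg. No group received paeonol alone. The labels give neither the age nor the sex of the mice, neither the number of MC903 doses nor the day of collection, and no vehicle for paeonol. They do not say whether the 3 libraries of a group came from separate mice, so p-values measure a spread between samples that may be technical. The ear was sequenced as a whole tissue: fewer melanocytes and less RNA per melanocyte cannot be told apart.

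Melanocytes make melanin in melanosomes, organelles related to lysosomes, and pass them to keratinocytes. Melanin is made from tyrosine by tyrosinase, the product of Tyr, and by the related enzymes of Tyrp1 and Dct, on amyloid fibrils built from the product of Pmel. The transcription factor MITF is the central regulator of the lineage and acts on the promoters of these enzyme genes. Its activity is controlled in part through the melanocortin receptor MC1R and the receptor tyrosine kinase KIT. Neither Mitf nor Kit belongs to melanocytes alone: mast cells express both, and other isoforms of Mitf are made in macrophages and in many other tissues.

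The promoter windows of the 3 melanin enzymes and of Mc1r are shown because these 4 hold the letters TCATGTG, the form of the E-box that is known from the promoters of MITF targets in melanocytes. Each runs 5′ to 3′ on the strand of its gene, from 250 bases before to 50 bases after the RefSeq start (GRCm38.p6), and capitals mark CATGTG or its reverse complement CACATG.

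Tyr (chr7:87493463-87493762, minus strand): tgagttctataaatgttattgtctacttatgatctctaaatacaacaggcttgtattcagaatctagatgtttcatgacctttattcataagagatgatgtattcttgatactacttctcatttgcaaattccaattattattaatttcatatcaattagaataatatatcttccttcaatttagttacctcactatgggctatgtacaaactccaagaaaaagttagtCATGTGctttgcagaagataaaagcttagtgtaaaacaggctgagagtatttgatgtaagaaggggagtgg

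Tyrp1 (chr4:80833963-80834262, plus strand): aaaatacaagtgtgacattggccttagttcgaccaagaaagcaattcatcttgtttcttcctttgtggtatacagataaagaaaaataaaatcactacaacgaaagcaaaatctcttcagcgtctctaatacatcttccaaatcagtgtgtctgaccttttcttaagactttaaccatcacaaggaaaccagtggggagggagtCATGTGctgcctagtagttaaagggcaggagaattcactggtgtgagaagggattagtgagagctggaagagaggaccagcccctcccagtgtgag

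Dct (chr14:118052197-118052496, minus strand): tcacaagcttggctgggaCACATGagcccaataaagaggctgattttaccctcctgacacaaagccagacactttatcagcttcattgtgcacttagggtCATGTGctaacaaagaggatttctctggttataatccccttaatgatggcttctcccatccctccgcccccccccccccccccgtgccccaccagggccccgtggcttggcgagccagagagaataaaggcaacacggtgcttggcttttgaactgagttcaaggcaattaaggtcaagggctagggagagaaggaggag

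Mc1r (chr8:123406832-123407131, plus strand): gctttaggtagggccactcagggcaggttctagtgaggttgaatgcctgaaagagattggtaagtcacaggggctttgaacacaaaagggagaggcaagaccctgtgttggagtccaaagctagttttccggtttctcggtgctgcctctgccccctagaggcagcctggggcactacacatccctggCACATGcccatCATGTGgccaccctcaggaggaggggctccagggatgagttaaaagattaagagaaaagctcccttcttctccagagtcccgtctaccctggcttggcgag

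RefSeq windows were matched for 7 of the 10 genes: these 4, Oca2, Mitf with 3 starts and Kit with 2. Read on either strand, TCATGTG begins 22 bases before the start in Tyr, 47 before in Tyrp1, 151 and 232 before in Dct and 52 before in Mc1r. Every TCATGTG also holds a CATGTG. Of 32851 mouse promoter windows of 300 bases, 3.77% hold TCATGTG and 14.2% hold CATGTG. The Oca2 window holds CACATG alone, 186 bases before the start, and the windows of Mitf and Kit hold neither form. CACGTG, the other E-box searched, is in 7.15% of all windows and in none of these. Such matches describe letters in a window and are not measurements of binding.

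All 10 genes were detected in each of the 9 libraries, with 22 to 1971 estimated counts against library totals of 54.26 to 57.75 M. Per kilobase of exon, the mean level in control ears was highest for Pmel at 7.53 CPM per kb (CPM relates a count to the size of its library as adjusted by edgeR's TMM method). Tyrp1 followed at 5.30, Dct and Mitf at 3.64 each, Mlana at 3.04 and Kit at 1.70. Tyr was much lower at 0.433 CPM per kb, with Slc45a2 at 0.289, Mc1r at 0.254 and Oca2 at 0.135. In the paeonol group the order on the same scale was Pmel 10.6, Tyrp1 8.59, Dct 5.17, Mlana 4.07, Mitf 3.16, Kit 1.65, Tyr 1.13, Slc45a2 0.521, Mc1r 0.502 and Oca2 0.334 CPM per kb. Mitf thus stood level with Dct in control ears and below Mlana with paeonol on this scale. The lengths merge the exons of all annotated transcripts, 6196 bases for Mitf and 1057 for Mlana, and the order between genes depends on them. In CPM without length, Mitf was at 19.6 and Mlana at 4.30 with paeonol. Where groups are said below to overlap or lie apart in CPM, this refers to the TMM scale. Its scaling factors were 1.08 to 1.09 in control, 0.942 to 0.957 in MC903 and 0.947 to 0.992 with paeonol. Gaps between control and the treated groups can therefore depend on this scaling. The deposited file gives no strand setting. Pmel shares 34 exon bases with Cdk2 and 105 with Dgka, and Mc1r shares 653 bases, 17.9% of its exons, with the predicted gene Gm38092, each on the opposite strand, so reads in those stretches could belong to either gene.

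Among the enzymes, Tyr (ENSMUSG00000004651, chr7:87424771-87493512) catalyses the first and rate-limiting step of melanin synthesis. Its level was 2.42, 2.87 and 3.94 CPM in control libraries 1, 2 and 3, then 5.66, 5.67 and 3.39 CPM in the MC903 libraries and 6.06, 10.4 and 7.65 CPM in the paeonol libraries. The paeonol libraries were above the other 6, while the third MC903 library lay within the control range. Tyrp1 (ENSMUSG00000005994, chr4:80834123-80851719), which helps to stabilise tyrosinase and acts later in eumelanin synthesis, was at 14.5, 13.6 and 16.9 CPM in control, 27.6, 29.4 and 17.8 CPM in MC903 and 20.7, 27.8 and 24.5 CPM with paeonol. Both treated groups were above the controls and overlapped each other. Dct (ENSMUSG00000022129, chr14:118012790-118052244), the dopachrome tautomerase, was at 19.8, 21.9 and 22.8 CPM in control, 25.3, 32.6 and 19.9 CPM in MC903 and 29.3, 36.4 and 25.8 CPM with paeonol. The paeonol libraries were above the controls, and the MC903 range ran across both.

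Pmel (ENSMUSG00000025359, chr10:128704195-128720238), the fibril protein of the melanosome, was at 16.2, 17.2 and 18.4 CPM in control, 21.7, 24.2 and 16.9 CPM in MC903 and 23.0, 26.7 and 23.1 CPM with paeonol. As for Dct, the paeonol libraries were above the controls and the MC903 libraries overlapped both groups. Mlana (ENSMUSG00000024806, chr19:29697824-29708634), a melanosomal membrane protein also known as MART-1, ranged from 1.79 to 4.02 CPM in control, 3.00 to 4.82 in MC903 and 3.49 to 5.05 with paeonol, and the 3 groups overlapped. Oca2 (ENSMUSG00000030450, chr7:56239760-56536518), a melanosomal anion channel gene mutated in the pink-eyed dilution mouse, was at 0.720, 0.509 and 0.372 CPM in control, 1.37, 0.961 and 1.11 CPM in MC903 and 0.759, 1.84 and 1.36 CPM with paeonol. Both treated groups were above the controls. Slc45a2 (ENSMUSG00000022243, chr15:11000721-11029233), the transporter gene of the underwhite mouse, ranged from 0.608 to 1.07 CPM, 0.708 to 1.19 CPM and 0.724 to 2.25 CPM in the same order of groups, with overlap throughout.

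Mitf (ENSMUSG00000035158, chr6:97807052-98021349) was at 21.6, 24.6 and 21.4 CPM in control, 26.3, 27.0 and 30.1 CPM in MC903 and 20.6, 18.3 and 19.8 CPM with paeonol. On this TMM scale no library of one group reached into another, with MC903 highest and paeonol lowest. Before scaling, the estimated counts of Mitf were 1264 to 1499 in control and 1345 to 1660 in MC903, which overlap. With paeonol they were 990 to 1169, below both. On library totals, too, control and MC903 overlapped and paeonol was lowest. Kit (ENSMUSG00000005672, chr5:75574916-75656722), the receptor for stem cell factor, was at 15.5, 16.0 and 14.1 CPM in control, 17.8, 20.4 and 18.1 CPM in MC903 and 15.4, 16.0 and 12.6 CPM with paeonol. Here the MC903 libraries stood above both other groups, which overlapped. Mc1r (ENSMUSG00000074037, chr8:123407107-123410744), the receptor for melanocyte-stimulating hormone, was at 0.800, 0.886 and 1.08 CPM in control, 1.84, 1.29 and 1.18 CPM in MC903 and 2.38, 1.84 and 1.25 CPM with paeonol, above control in both treated groups.

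**Figure D1:**
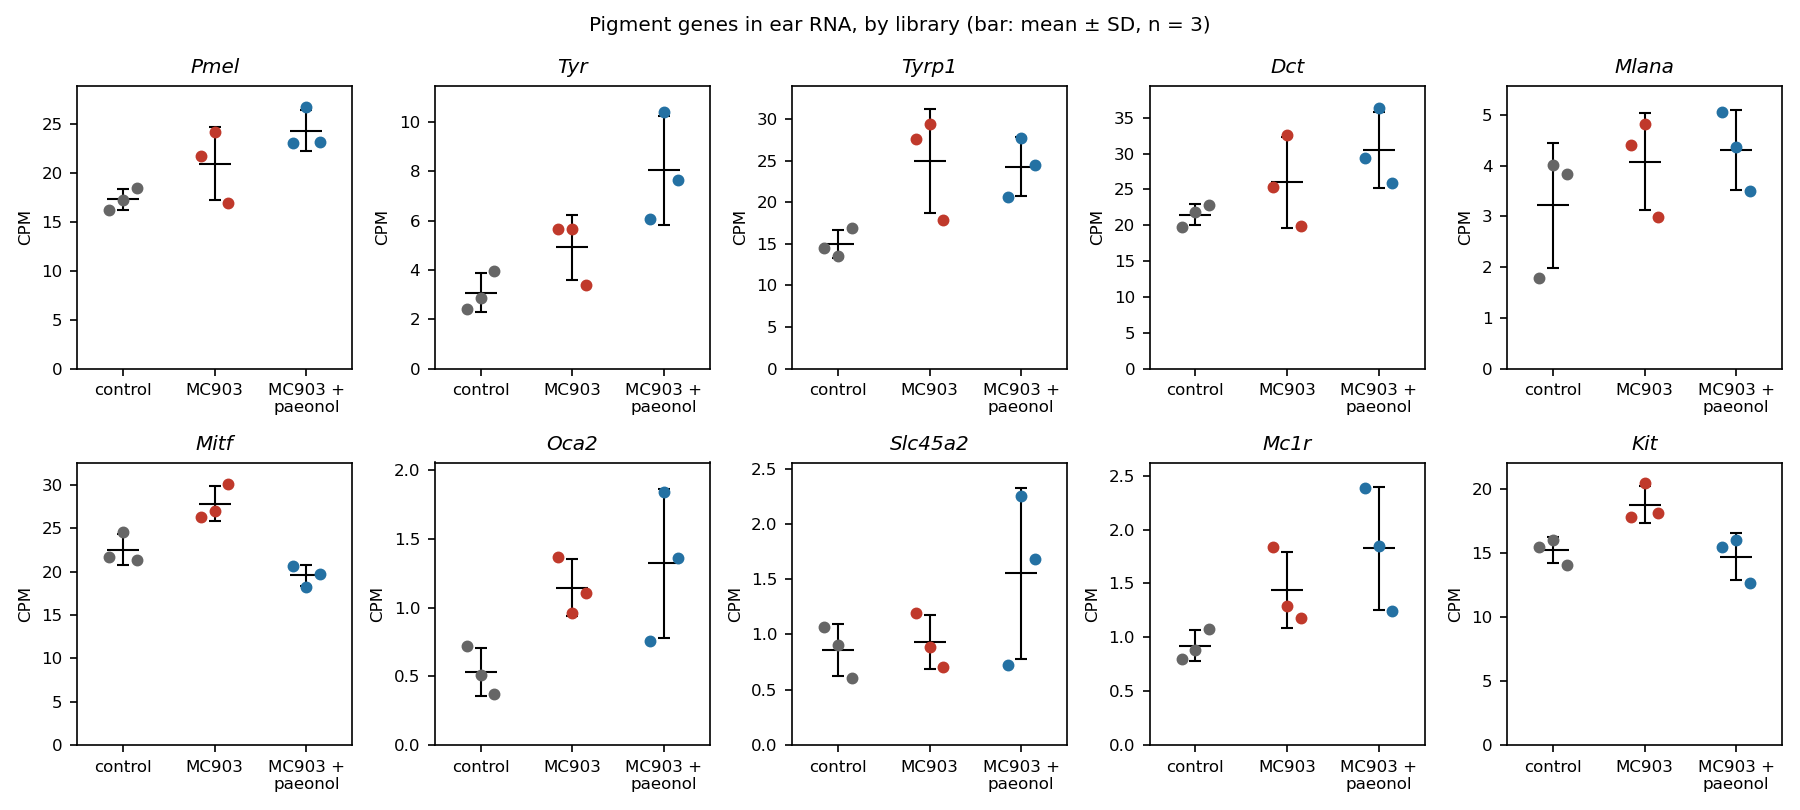
Level of each of the 10 genes in CPM (vertical axis, from 0) in the control, MC903 and MC903 + paeonol libraries; points are libraries, and bars are the mean and SD over 3 libraries. Tyr is highest in the paeonol libraries (6.06 to 10.4 CPM), while Mitf is lowest there (18.3 to 20.6 CPM) and highest in MC903 (26.3 to 30.1 CPM).

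The comparison of MC903 with control asks how the pigment genes stood in ears treated with the vitamin D analogue. Tyrp1, Mitf and Oca2 were higher in MC903, and 0 of the 10 genes were called lower (0 at an unadjusted edgeR p under 0.05, and 0 by DESeq2). Tyrp1 went from 15.0 ± 1.74 to 24.9 ± 6.23 CPM (SD, n = 3), a 1.67-fold difference. Mitf went from 22.5 ± 1.79 to 27.8 ± 2.03 CPM and Oca2 from 0.534 ± 0.176 to 1.15 ± 0.207 CPM. Calls rest on edgeR's quasi-likelihood test across 21925 genes with Benjamini-Hochberg adjustment, at an adjusted p under 0.05. By that rule 46.8% of all genes were called (23% higher and 23.8% lower). With 3 of 10 called, the pigment genes were not called more often than genes in general. Their median log2 change was 0.32, beside -0.02 for all genes tested.

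Among the enzymes, the log2 change in MC903 against control was 0.74 ± 0.18 (SE) for Tyrp1, with an edgeR adjusted p of 0.00665. Tyr had 0.67 ± 0.27 (adjusted p = 0.0636 in edgeR) and Dct 0.27 ± 0.17 (adjusted p = 0.229), and neither was called. Of the structural and transport genes, Oca2 rose by 1.10 ± 0.40 on the log2 scale (edgeR adjusted p = 0.0417). Pmel, at 0.28 ± 0.13, Mlana, at 0.34 ± 0.31, and Slc45a2, at 0.11 ± 0.43, did not pass (edgeR adjusted p = 0.103, 0.397 and 0.861). Mitf was at 0.30 ± 0.10 (edgeR adjusted p = 0.0206), and the receptors Kit and Mc1r, at 0.30 ± 0.12 and 0.64 ± 0.32, were not called (0.0515 and 0.127 as edgeR adjusted p). Kit was called in 7 of 18 alternatives that set no minimum fold, by DESeq2 among them (adjusted p = 0.0317), and had an adjusted p of up to 0.677 in the others. Without overlap between the groups, 5 of the 10 were higher in MC903 (Tyrp1, Mitf, Oca2, Mc1r and Kit), against 28.3% of all genes, and 0 were lower, against 29.8%. These gaps are on TMM-scaled CPM. On library totals alone, Tyrp1, Mitf, Mc1r and Kit overlapped between the groups. Tyrp1, for example, had 982 estimated counts in MC903 library 3 (total 57.75 M) and 1001 in control library 3 (54.71 M).

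The Tyrp1 call held in each of 18 alternatives that set no minimum fold, with log2 changes from 0.51 to 0.93. The Mitf call ended under scaling by library totals (log2 0.11, edgeR adjusted p = 0.378), under scaling by keratinocyte markers (log2 0.0837, edgeR adjusted p = 0.669) and without control library 1 or 3 or MC903 library 3 (0.0698, 0.0771 and 0.0864), and the Oca2 call held in 7 of 17 alternatives, with adjusted p up to 0.135. Without MC903 library 3, the lowest of its group for 7 of the 10 genes, Pmel, Tyr and Dct were called as well (log2 0.41, 0.88 and 0.43, edgeR adjusted p = 0.0134, 0.0224 and 0.0447). Tyr was also called without control library 3 (0.0361) and by DESeq2 (0.0391 as adjusted p).

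With paeonol given beside MC903, the comparison against MC903 alone shows what differed between the treated groups. Mitf and Kit were lower with paeonol, and the melanin enzyme, fibril and transport genes were not called. Mitf went from 27.8 ± 2.03 to 19.6 ± 1.21 CPM (SD, n = 3), or 0.703 times its MC903 level, and Kit from 18.8 ± 1.44 to 14.7 ± 1.82 CPM. Tyr had the opposite sign, from 4.91 ± 1.31 to 8.04 ± 2.20 CPM, and missed the threshold. Of all genes, 29.7% were called in this comparison, 15.3% higher and 14.3% lower, beside 0 higher (1 at an unadjusted edgeR p under 0.05, and 1 by DESeq2) and 2 lower of the 10. The median log2 change of the 10 was 0.21, beside 0.00240 for all genes.

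For Mitf the log2 change with paeonol against MC903 was -0.51 ± 0.10 (SE), with an edgeR adjusted p of 0.00201. Kit had -0.35 ± 0.12 (edgeR adjusted p = 0.0417). Tyr, at 0.71 ± 0.27, had an edgeR adjusted p of 0.0703, although its 3 paeonol libraries lay above the 3 MC903 libraries. The other enzymes were at -0.04 ± 0.18 for Tyrp1 and 0.23 ± 0.17 for Dct (edgeR adjusted p = 0.908 and 0.365). Pmel, Mlana, Oca2, Slc45a2 and Mc1r had log2 changes of 0.22, 0.08, 0.20, 0.74 and 0.35, with edgeR adjusted p from 0.228 to 0.882. Tyr was the 1 gene whose groups did not overlap in the higher direction, against 21.9% of all genes, and Mitf and Kit the 2 in the lower direction, against 22%.

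The Mitf call held in each of 18 alternatives that set no minimum fold, with log2 changes from -0.99 to -0.45. The Kit call held in 7 of 18 and ended under scaling by library totals (edgeR adjusted p = 0.0762), without the filter on low counts (0.0568), in the fit of these 2 groups (0.0663) and without any one library other than paeonol library 2 (0.0502 to 0.144), while Tyr was called without paeonol library 1 (log2 0.88, edgeR adjusted p = 0.0439) and by DESeq2 (0.0409).

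Against control, 6 of the 10 pigment transcripts were higher in ears given MC903 and paeonol. These were Tyr, Tyrp1, Dct, Pmel, Oca2 and Mc1r, and 0 of the 10 were called lower (0 at an unadjusted edgeR p under 0.05, and 0 by DESeq2). Tyr went from 3.08 ± 0.781 to 8.04 ± 2.20 CPM (SD, n = 3), a 2.61-fold difference, Tyrp1 from 15.0 ± 1.74 to 24.3 ± 3.54 CPM and Pmel from 17.3 ± 1.08 to 24.3 ± 2.07 CPM. The called share was 30.9% over all genes, 16.3% higher and 14.5% lower, beside 6 higher and 0 lower of the 10. The median log2 change of the 10 was 0.60, beside -0.03 for all genes. The comparison shares its control libraries with the first and its paeonol libraries with the second.

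In the paeonol group against control, Tyr had a log2 change of 1.39 ± 0.28 (SE) and an edgeR adjusted p of 0.00295. Tyrp1 was at 0.70 ± 0.18 and Dct at 0.51 ± 0.17 (edgeR adjusted p = 0.0142 and 0.0488). Pmel was at 0.49 ± 0.13, Oca2 at 1.30 ± 0.40 and Mc1r at 0.98 ± 0.32 (edgeR adjusted p = 0.0133, 0.0287 and 0.0369). Mlana and Slc45a2, at 0.42 ± 0.31 and 0.85 ± 0.43, were not called (0.344 and 0.161 as edgeR adjusted p). Neither were Mitf, at -0.20 ± 0.10, and Kit, at -0.05 ± 0.12 (edgeR adjusted p = 0.133 and 0.807). Groups without overlap were found for 6 of the 10 in the higher direction, against 22.8% of all genes, and for Mitf in the lower direction, against 23.6%. On library totals alone, Dct and Oca2 overlapped. Dct had 1347 estimated counts in both paeonol library 3 and control library 3. Oca2 had 43 in paeonol library 1 and 45 in control library 1. Mc1r came close, with 65 in paeonol library 3 and 64 in control library 3.

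Tyr was called in each of 18 alternatives that set no minimum fold, with log2 changes from 0.67 to 1.60. Under scaling by library totals the calls of Pmel, Dct and Mc1r ended (edgeR adjusted p = 0.0729, 0.165 and 0.0708) and Mitf was called lower (log2 -0.37, edgeR adjusted p = 0.0152). Without the filter on low counts the calls of Dct and Mc1r ended (0.0718 and 0.0520 as edgeR adjusted p). Without paeonol library 2, the highest of its group for 7 of the 10 genes, Tyr alone stayed called and Pmel, Tyrp1, Dct, Oca2 and Mc1r had edgeR adjusted p of 0.0606, 0.0583, 0.179, 0.129 and 0.0848; without control library 2 the count was 2, with Tyrp1 at 0.057, Dct at 0.108, Oca2 at 0.0802 and Mc1r at 0.0959, and without control library 3 it was 3, with Dct at 0.0882, Oca2 at 0.101 and Mc1r at 0.0551.

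**Figure D2:**
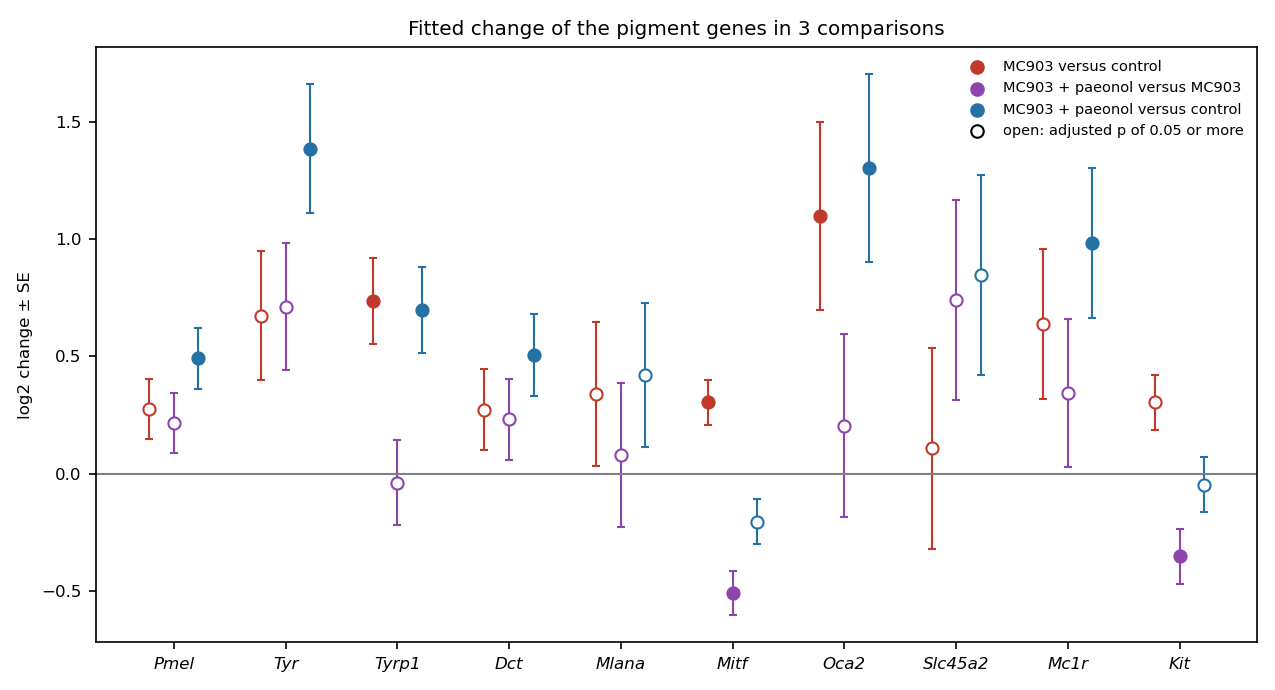
Fitted log2 change (vertical axis) of each gene in the 3 comparisons, with bars of 1 SE; filled points are called at an edgeR adjusted p under 0.05 and open points are not. The change of Mitf is positive in MC903 against control (0.30) and negative with paeonol against MC903 (-0.51), while Tyr has 0.67, 0.71 and 1.39 in the 3 comparisons.

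Each gene was also set against Pmel within its own library, a ratio that no scaling between libraries can move. This measure was chosen after the values were seen. Dct kept to Pmel closely, at 124 ± 2.50 counts per 100 Pmel counts in control, 123 ± 10.2 in MC903 and 125 ± 12.4 with paeonol (SD, n = 3). Tyr was at 14.9, 16.7 and 21.4 counts per 100 Pmel counts in control, 26.1, 23.5 and 20.1 in MC903 and 26.3, 39.0 and 33.1 with paeonol. The paeonol libraries were above the other 6 in this ratio too. Tyrp1 was at 89.1, 78.8 and 92.1 in control, 127, 122 and 106 in MC903 and 89.7, 104 and 106 with paeonol on the same scale, with the MC903 libraries above the controls.

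Mitf moved apart from Pmel in the paeonol libraries. It was at 133, 143 and 116 counts per 100 Pmel counts in control, 121, 112 and 178 in MC903 and 89.6, 68.5 and 85.5 with paeonol. Kit was at 95.4, 93.0 and 76.6 in control, 81.9, 84.5 and 107 in MC903 and 67.0, 60.1 and 54.6 with paeonol. In both genes the paeonol libraries were below the other 6, and control and MC903 overlapped. Pmel itself was called higher with paeonol than in control (log2 change 0.49). Mitf and Kit, at -0.20 and -0.05, were not called there, so their ratios against control also carry the higher level of Pmel. Of 27 exact two-sided permutation tests of these ratios, none could go below p = 0.1 with 3 libraries against 3. That value was reached by Tyr and by Mitf and Kit in both comparisons of the paeonol group and by Tyrp1 in MC903 against control, and the adjusted p over the 27 was 0.386.

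**Figure D3:**
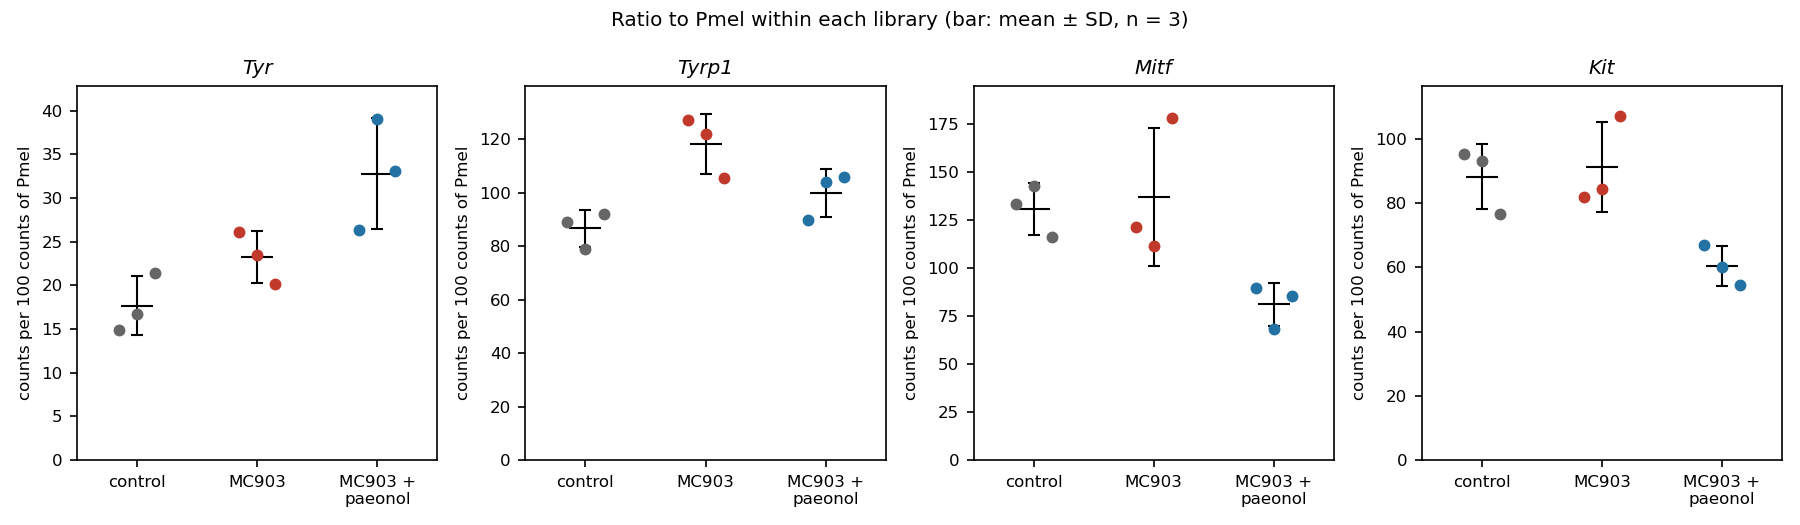
Counts of Tyr, Tyrp1, Mitf and Kit per 100 counts of Pmel in the same library (vertical axis, from 0); points are libraries, and bars are the mean and SD over 3 libraries. The paeonol libraries are the highest for Tyr (26.3 to 39.0) and the lowest for Mitf (68.5 to 89.6) and Kit (54.6 to 67.0).

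The 10 genes did not share a single pattern over the 9 libraries. As a reference, log2 CPM was standardised per gene and averaged over Pmel, Tyr, Tyrp1, Dct and Mlana, and each gene's distance from that mean was taken as the root mean square difference over the 9 libraries. Pmel was nearest at 0.166, followed by Dct at 0.299, Tyr at 0.311, Tyrp1 at 0.411, Mlana at 0.611 and Mc1r at 0.615. The first 5 are part of the mean, which draws them to it. Oca2 stood at 0.854, Slc45a2 at 0.961, Kit at 1.24 and Mitf at 1.52. Of all genes tested, 271 were closer to the mean than Mlana and 285 closer than Mc1r. For Oca2, Slc45a2, Kit and Mitf the numbers were 2199, 3757, 8435 and 15106. Outside the set, the nearest genes with a mean of at least 0.5 CPM were Nme7 at 0.226, the predicted gene Gm19680 at 0.272 and the water channel gene Aqp5 at 0.324. Nme7 was at 10.3 ± 0.760 CPM in control, 12.6 ± 1.93 in MC903 and 14.5 ± 0.930 with paeonol (SD, n = 3). Of the 10 nearest genes, 0 belonged to the other melanocyte lists.

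Further genes of the melanosome were higher or lower by gene. In a list of 15 melanosome channels, receptors and matrix genes, 5 were higher and 1 lower in MC903 against control, with a median log2 change of 0.25. With paeonol against MC903, 2 were higher and 5 lower (median -0.01), and with paeonol against control 5 higher and 3 lower (median 0.15). Over all genes, 23% were higher and 23.8% lower in the first comparison, 15.3% and 14.3% in the second and 16.3% and 14.5% in the third, and the counts of the lists that follow stand beside these same shares. Slc24a5, a cation exchanger needed for full pigmentation, was at 3.71, 4.12 and 4.36 CPM in control, 7.32, 5.84 and 6.99 CPM in MC903 and 10.3, 9.48 and 4.79 CPM with paeonol. Both treated groups were above control on the TMM scale, with log2 changes of 0.72 ± 0.25 and 1.01 ± 0.25 (edgeR adjusted p = 0.0331 and 0.0100). Before scaling, paeonol library 3 had 250 estimated counts of Slc24a5 and control library 3 had 258. The call in MC903 against control ended under scaling by library totals (0.113 as edgeR adjusted p) and without any one of control libraries 1, 2 and 3 and MC903 libraries 1 and 3 (0.0608 to 0.0982), and 39.5% of the exon bases of Slc24a5 are shared with Myef2 on the opposite strand.

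Trpm1, a cation channel gene of melanocytes that MITF is known to regulate, was at 5.01 ± 1.03 CPM in control, 5.46 ± 0.0424 in MC903 and 8.06 ± 1.65 with paeonol (SD, n = 3). Its log2 change was 0.69 ± 0.20 with paeonol against control (edgeR adjusted p = 0.0229) and 0.12 ± 0.20 in MC903 against control (0.653). With paeonol against MC903 it was 0.56 ± 0.20 (edgeR adjusted p = 0.0553) with no overlap of the groups, and it was called there by DESeq2 (0.0311) and under scaling by library totals (0.0447). The call against control ended under scaling by library totals (0.0635 as edgeR adjusted p) and without control library 1 or paeonol library 2 or 3 (0.0823, 0.0899 and 0.0795). Slc7a11, the cystine importer behind the subtle gray coat, rose from 6.11 ± 1.94 to 48.6 ± 4.98 CPM in MC903 and stood at 27.9 ± 3.40 CPM with paeonol. Whole-ear RNA does not show which cells held this transcript. Tpcn2, a channel of melanosomes and endolysosomes, had log2 changes of 1.12 ± 0.09 in MC903 against control and -0.98 ± 0.09 with paeonol against MC903. Mitf had the same signs there. With paeonol against control Tpcn2 was at 0.15 ± 0.09 (edgeR adjusted p = 0.261), while Mitf was at -0.20 ± 0.10. Cd63 and Gpnmb, membrane proteins shared by melanosomes and macrophage lysosomes, fell with paeonol against MC903 by log2 changes of -0.89 ± 0.09 and -0.80 ± 0.14. Gpr143, a melanosomal receptor, had 0 to 23 estimated counts per library.

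Of 27 tested genes for building and moving melanosomes, 9 were higher and 6 lower in MC903 against control (median log2 change -0.07), 4 higher and 3 lower with paeonol against MC903 (-0.02) and 5 higher and 4 lower with paeonol against control (-0.01). Over all genes the called shares were 46.8%, 29.7% and 30.9% in these comparisons. Rab38, which sorts tyrosinase family proteins to the melanosome, was at 27.1 ± 2.17 CPM in control, 41.8 ± 3.16 in MC903 and 61.3 ± 4.53 with paeonol (SD, n = 3), higher in each group than in the one before. Its log2 changes were 0.63 ± 0.09, 0.55 ± 0.09 and 1.18 ± 0.09 in the 3 comparisons. Mlph, which links melanosomes to the myosin motor, rose from 2.63 ± 0.699 CPM in control to 12.7 ± 1.19 in MC903 and 9.82 ± 4.01 with paeonol. Rab27a, the GTPase that recruits melanophilin, fell in MC903 by a log2 change of -0.65 ± 0.13 and was higher with paeonol than in MC903 by 0.76 ± 0.13. Which cells of the ear held the transcripts of Rab38, Mlph and Rab27a was not tested.

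Among 18 regulators of the lineage, 7 were higher and 7 lower in MC903 against control (median log2 change -0.10), 2 higher and 6 lower with paeonol against MC903 (0.05) and 2 higher and 4 lower with paeonol against control (-0.26), beside 46.8%, 29.7% and 30.9% of all genes called in either direction. Sox10, a regulator of Mitf that Schwann cells also express, was at 14.6, 15.7 and 14.2 CPM in control, 6.77, 8.98 and 8.02 CPM in MC903 and 9.89, 11.6 and 6.67 CPM with paeonol. Both treated groups were below control, with log2 changes of -0.90 ± 0.19 and -0.66 ± 0.19 (edgeR adjusted p = 0.00205 and 0.0200), opposite in sign to Tyr, Tyrp1 and Pmel; the second ended without control library 2 or paeonol library 3 (0.0631 and 0.0516 as edgeR adjusted p). Schwann cell markers moved with it: 10 of 14 were lower and 1 higher in MC903 against control, with a median of -1.25, and the summed level was 1112 to 1266 CPM in control, 532 to 547 in MC903 and 667 to 717 with paeonol. Their part in the Sox10 difference was not tested. Pax3, the partner of SOX10 at the Mitf promoter, was at 1.46 ± 0.387, 1.21 ± 0.388 and 1.33 ± 0.381 CPM in the 3 groups and was not called in any comparison.

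Ednrb, the endothelin receptor of melanoblasts and also of other skin cells, was at 9.83, 11.8 and 10.6 CPM in control, 31.3, 35.4 and 26.7 CPM in MC903 and 10.4, 10.5 and 6.84 CPM with paeonol. The MC903 libraries were far above the others, with a log2 change of 1.53 ± 0.17 against control, and the paeonol group was lower than MC903 by a log2 change of -1.75 ± 0.17. Its ligand Edn3 had 167 to 202 estimated counts in the control libraries, 4 to 17 in MC903 and 21 to 48 with paeonol, lowest in the group where the receptor transcript was highest. Edn1 was at 4.82 ± 0.726 CPM in control, 5.24 ± 0.685 in MC903 and 3.11 ± 0.123 with paeonol (SD, n = 3). It was lower with paeonol than in MC903 (log2 change -0.75 ± 0.19, edgeR adjusted p = 0.00979). Kitl, which encodes the KIT ligand, was at 47.8 ± 2.57, 47.9 ± 1.81 and 40.1 ± 5.00 CPM in the 3 groups, and its log2 change with paeonol against MC903 was -0.26 ± 0.09 (edgeR adjusted p = 0.0549).

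Of 21 tested signals to melanocytes, 4 were higher and 8 lower in MC903 against control (median log2 change -0.24), 6 higher and 5 lower with paeonol against MC903 (-0.08) and 2 higher and 7 lower with paeonol against control (-0.33). Sfrp2 and Wif1, secreted inhibitors of Wnt signalling, fell in MC903 by log2 changes of -3.16 ± 0.15 and -1.76 ± 0.11 and rose with paeonol against MC903 by 1.98 ± 0.15 and 1.27 ± 0.11. Corin, a protease of the dermal papilla that dampens agouti signalling in the coat, fell by -1.91 ± 0.12 and rose by 1.32 ± 0.12 in the same comparisons. Pomc, the precursor of melanocyte-stimulating hormone, had 0 to 12 estimated counts and was not tested, and Dkk1 was at 0 in every library. Agouti itself, listed as Asip, matched no row by that name and so was not analysed here.

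**Figure D4:**
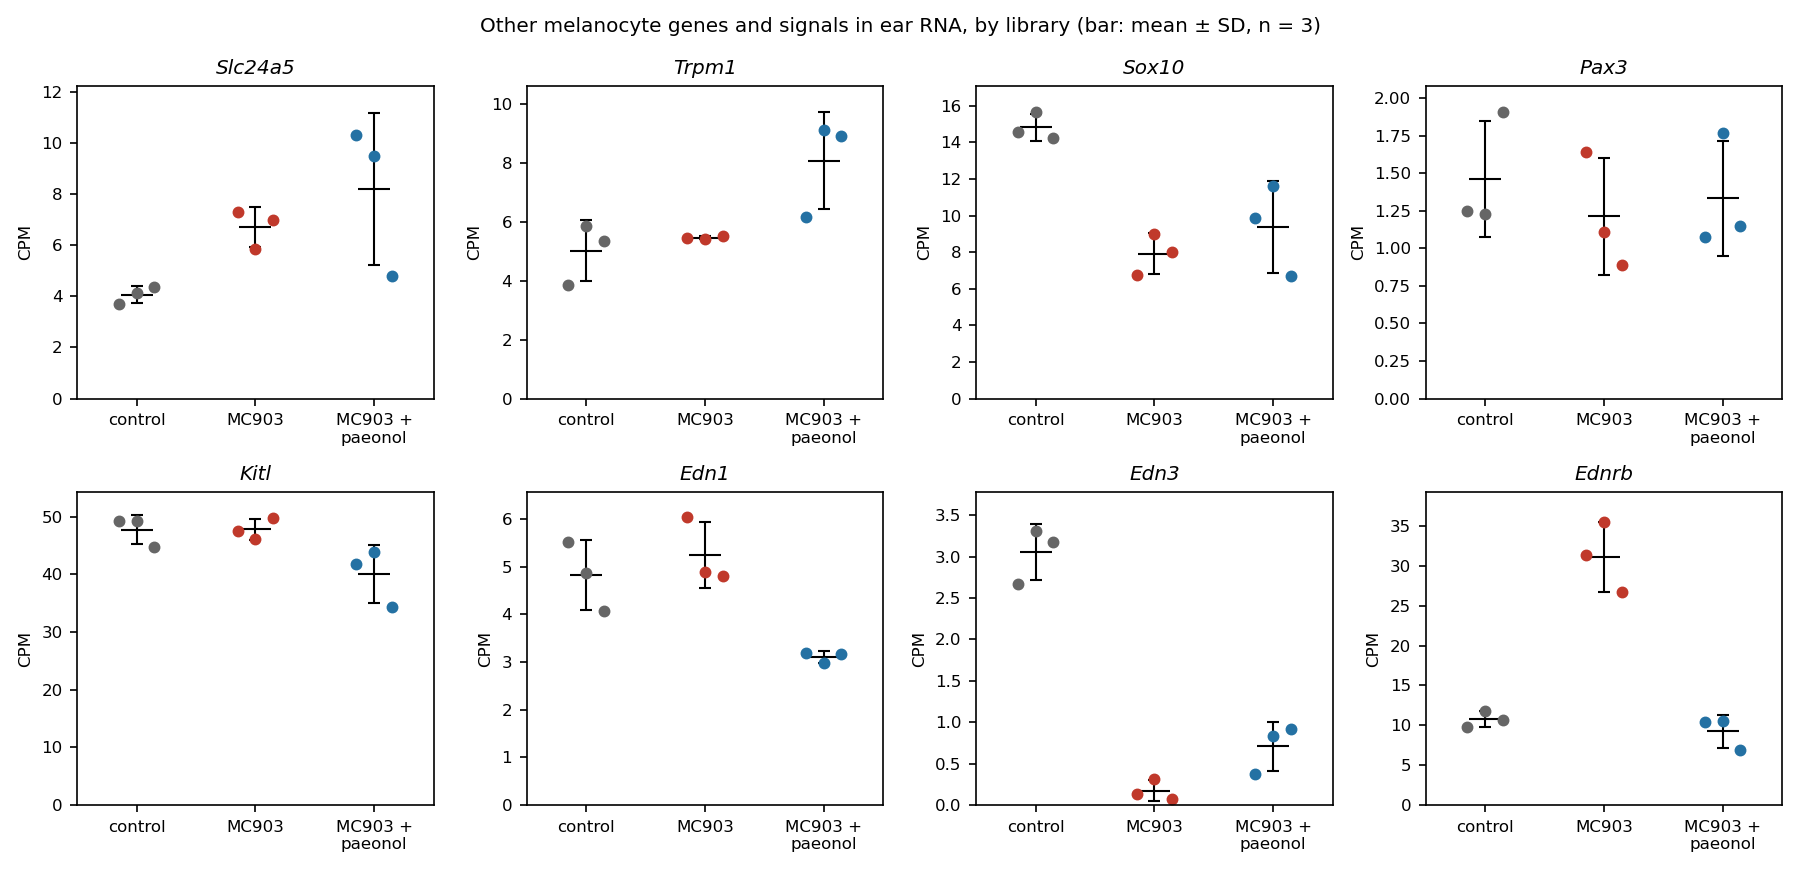
Level in CPM (vertical axis, from 0) of 8 genes of melanosome channels, lineage regulators and signals in the 3 groups; points are libraries, and bars are the mean and SD over 3 libraries. Ednrb is highest in the MC903 libraries (26.7 to 35.4 CPM), where Edn3 is lowest, and Sox10 is lower in both treated groups than in control.

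Markers of other cell types moved between the groups as well. Mast cells express Kit and Mitf. Of 16 mast cell markers tested, 9 were higher and 3 lower in MC903 against control (median log2 change 0.80), and 0 higher and 8 lower with paeonol against MC903 (-0.60). In the second comparison 1 marker had an unadjusted edgeR p under 0.05 in the higher direction, and DESeq2 called 0 higher. The summed level of the list was 169 to 201 CPM in control, 287 to 355 in MC903 and 203 to 240 with paeonol. Rab27b, a GTPase of secretory granules that other cells also express, made 33.0, 72.8 and 89.3 CPM of the mean sums, and without it the sums were 138 to 162, 205 to 285 and 105 to 158 CPM, so that control and paeonol overlapped. Macrophage markers, 14 tested, had 12 higher and 0 lower in MC903 against control (1.10) and 0 higher and 13 lower with paeonol against MC903 (-1.34). Their sum was 1205 to 1286 CPM, 2149 to 2455 CPM and 797 to 1109 CPM in the 3 groups. In the directions with a count of 0, DESeq2 called 0 macrophage or muscle markers and 0 had an unadjusted edgeR p under 0.05. Both lists thus had the same order of MC903 above paeonol as Mitf and Kit, and their part in those 2 genes was not tested. Mcpt4, a mast cell protease and one of the most abundant markers, was at 45.6 ± 2.63, 54.7 ± 13.6 and 40.7 ± 8.32 CPM in the 3 groups (SD, n = 3) and was not called in any comparison; without MC903 library 1 it was called lower with paeonol than in MC903 (edgeR adjusted p = 0.0262). Of the mast cell list, Mcpt9 was at 0 in every library.

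Keratinocytes receive melanosomes and make much of the RNA of an ear. The summed level of 15 keratinocyte markers was 22385 to 26111 CPM in control, 31140 to 38179 CPM in MC903 and 49380 to 53788 CPM with paeonol. Krt10, a keratin of differentiating layers, went from 2712 ± 1936 CPM in MC903 to 16109 ± 2503 with paeonol (SD, n = 3), while Krt14, a keratin of the basal layer, fell from 13643 ± 470 to 10050 ± 914 CPM (log2 change -0.44 ± 0.07, edgeR adjusted p = 0.000922). Without Krt10 the sums were 19790 to 22085 CPM in control, 29886 to 33270 in MC903 and 33912 to 35626 with paeonol. With paeonol against control, 12 of the 15 markers were higher and 2 lower, beside 16.3% and 14.5% of all genes. Their median log2 change was 0.62, and that of the 10 pigment genes was 0.60. Skeletal muscle markers went the other way, with 0 of 15 higher and 15 lower and a median of -1.13. The part of either cell type in the differences of the pigment genes was not tested. When the libraries were scaled by the keratinocyte markers, which was tried only once the values were known, Tyr stayed higher with paeonol than in control (log2 0.67, edgeR adjusted p = 0.0437), while the other 5 calls ended: Pmel, Tyrp1 and Dct were at -0.21, -0.01 and -0.20, and Oca2 and Mc1r at 0.61 and 0.28 (edgeR adjusted p = 0.196 and 0.477). On that scale Mitf and Kit were lower with paeonol than in control (log2 -0.91 and -0.75) and than in MC903 (-0.99 and -0.84), and Tyrp1 was lower than in MC903 (-0.51). Keratinocyte scaling lowers genes in general with paeonol: the median over all genes was -0.736 against control and -0.478 against MC903. Of 21925 genes, 13600 and 9952 were called lower in these comparisons, and Kit lay near the median against control. Under TMM, DESeq2 size factors, library totals and keratinocyte scaling, Tyr was called higher with paeonol than in control and Mitf lower with paeonol than in MC903.

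**Figure D5:**
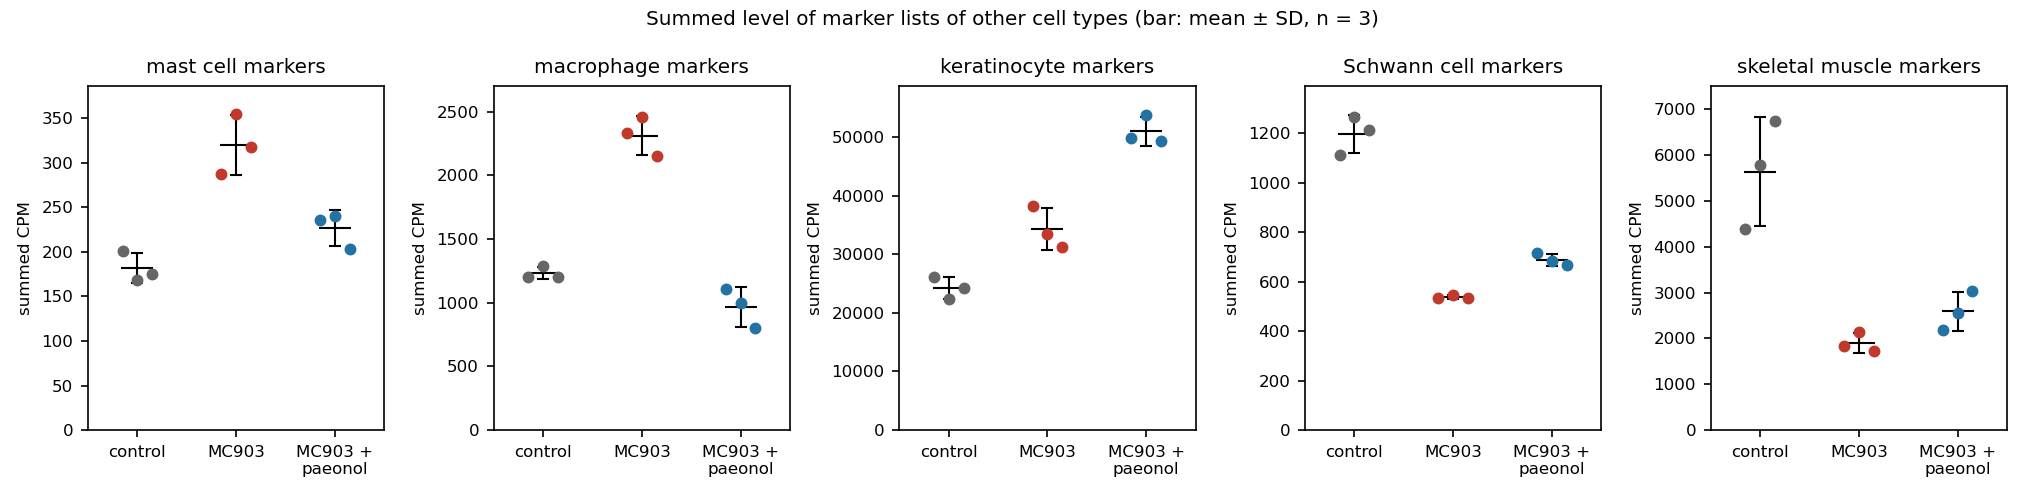
Summed CPM of 5 marker lists of other cell types (vertical axis, from 0) in the 3 groups; points are libraries, and bars are the mean and SD over 3 libraries. Mast cell and macrophage sums are highest in MC903, keratinocyte sums are highest with paeonol (49380 to 53788 CPM), and Schwann cell and skeletal muscle sums are highest in control.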

How the data were processed

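Polyadenylated RNA of mouse ears was sequenced in 9 libraries, 3 per group, with dUTP in the second strand, per the labels' protocols. Per the submitters' processing notes, the tools were StringTie 1.3.4d, HISAT2 2.0.4 and cutadapt, with GRCm38; the sources used here do not give what each did or whether counting used the strand. Values in the authors' deposited table are whole numbers, taken as estimated counts that were not scaled across libraries. Multiples of 4 are over-represented at the low end (4 occurs 1.9 to 2.23 times as often as its neighbours), so counting error is larger than the counts alone imply.

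Groups came from the treatment labels and replicate numbers from the titles; the labels name no batch. Rows were named through GENCODE M21 (55141 of 55401 matched). Of these, 21925 passed filterByExpr (minimum count 10, minimum total 15) in edgeR 4.0.16 under R 4.3.3; 0.0398% of counts lay outside them. All 9 libraries entered 1 robust quasi-likelihood fit with TMM scaling (common biological coefficient of variation 0.214), and the 3 pairs of groups were compared two-sided with Benjamini-Hochberg adjustment. SEs were derived approximately, as the log2 change over the root of F. On counts divided by 4, chi-square over its degrees of freedom was 7.03 to 15.8 between replicates, so none was treated as a duplicate.

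The members and lists were chosen with earlier results of these data known. Other genes named from the 4 further melanocyte lists are fixed members and, per list, those with the smallest p. From the lists of other cell types they are the 2 tested genes with the highest mean CPM. Genes without counts in any library are named too, and the nearest genes by pattern follow the distance given. Alternatives were DESeq2 size factors in edgeR, DESeq2 1.42.0, library totals, no filter, a mean CPM of at least 1, 2-group fits, the replicate number as a block, counts divided by 4, a minimum fold of 1.5 and each library left out; scaling by keratinocyte markers, and marker sums without Rab27b or Krt10, were added after the data were seen. Promoter windows are from RefSeq (GRCm38.p6).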

Additional observations from a re-analysis of the deposited data

How the results depend on the processing

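For MC903 against control, the count of pigment genes called (3) was 1 under library totals and under keratinocyte scaling, 5 by DESeq2 and 2 to 4 with each library left out. Of 21925 genes, 10626 were called under library totals, 9689 under keratinocyte scaling and 10809 by DESeq2. With paeonol against MC903 (2) it was 1 under library totals, without the filter and in the fit of 2 groups, 3 by DESeq2 (Tyr gained) and under keratinocyte scaling (Tyrp1 gained as lower), and 1 to 2 with each library left out. Of 21925 genes, 6425 were called under library totals, 7287 by DESeq2 and 11014 under keratinocyte scaling. Without the filter 6052 of 33888 were called, and in the fit of 2 groups 5990 of 20811. With paeonol against control (6, all higher) it was 3 under keratinocyte scaling (Tyr higher, Mitf and Kit lower), 4 under library totals (3 higher, and Mitf lower), 4 without the filter and 1 to 6 with each library left out. Of 21925 genes, 14116 were called under keratinocyte scaling, 13600 of them lower, and 7509 under library totals, 5354 of them lower. Without the filter 6306 of 33888 were called. With a minimum fold of 1.5 (edgeR's glmTreat) it was 0 in each comparison, while 1, 0 and 3 genes had an unadjusted p under 0.05. By that rule 3693, 1389 and 770 of all 21925 genes were called. With each library left out, 9012 to 10376, 5065 to 6328 and 5216 to 6710 of all genes were called in the 3 comparisons. The causes of the differences between settings were not tested. Of the other lists, lineage regulators had 5 to 8 called with paeonol against MC903 and melanosome channels 5 to 8 with paeonol against control with each library left out.

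Under library totals the median over all genes went to -0.205 (MC903 against control), 0.0304 (paeonol against MC903) and -0.197 (paeonol against control), and keratinocyte scaling to -0.237, -0.478 and -0.736. Library totals also gave control means of 18.7 CPM for Pmel, 23.3 for Dct, 24.4 for Mitf and 16.5 for Kit. Signs turned as follows; of these results, Pmel, Tyrp1 and Dct had been called with paeonol against control. Under library totals, MC903 against control had log2 changes of -0.0833 for Slc45a2, -0.0671 for Trpm1, -0.19 for Kitl, -0.0720 for Edn1 and -0.11 for Dlx3, and paeonol against control -0.0180 for Tpcn2 and -0.0598 for Rab27a. Under keratinocyte scaling, MC903 against control had -0.12 for Slc45a2, paeonol against MC903 -0.26 for Pmel, -0.25 for Dct, -0.39 for Mlana, -0.27 for Oca2 and -0.12 for Mc1r, and paeonol against control -0.21 for Pmel, -0.00686 for Tyrp1, -0.20 for Dct and -0.30 for Mlana.

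With each library left out, log2 changes in MC903 against control ran from -1.36 to 0.68 for Gpr143, -0.0344 to 0.25 for Trpm1, -0.92 to 0.18 for Krt10, -0.11 to 0.30 for Slc45a2, -0.0421 to 0.0272 for Kitl and -0.0794 to 0.22 for Dlx3. With paeonol against MC903 they ran from -0.23 to 0.10 for Tyrp1, -0.11 to 0.17 for Bmp6, -0.10 to 0.22 for Mlana, -0.66 to 1.31 for Gpr143, -0.12 to 0.41 for Pax3, -0.00783 to 0.15 for Pmp22, -0.0224 to 0.89 for Rlbp1, -0.11 to 0.49 for Oca2 and -0.49 to 0.45 for Tchh. With paeonol against control they ran from -0.70 to 0.67 for Gpr143, -0.0281 to 0.26 for Rab27a, -0.39 to 0.10 for Pax3 and -0.11 to 0.0512 for Kit.

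The replicate numbers do not pair the samples: correlations of same-numbered libraries' deviations from their group means were -0.0113 to 0.04. In a fit with a replicate block, 3, 2 and 4 pigment genes were called in the 3 comparisons, beside 10104, 6348 and 6673 of all 21925 genes. Under the block Gpr143 turned to 0.12 with paeonol against MC903, Oca2 had edgeR adjusted p of 0.0629 and 0.0504 in MC903 and in paeonol against control, Mc1r 0.0603 in the latter, and Kit was called in MC903 against control (0.0345). Counting error weighs most on Oca2, with as few as 22 estimated counts in a library; its calls were the same with counts divided by 4.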

Other observations

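The markers of pigment cells outside the skin were read because retinal pigment cells share several of the 10 genes. Of this list 4 genes were tested. Lrat, the lecithin retinol acyltransferase of vitamin A storage, was at 2.11, 1.84 and 2.87 CPM in control, 87.1, 106 and 110 CPM in MC903 and 14.8, 24.7 and 45.6 CPM with paeonol. The MC903 libraries stood above all others, with a log2 change of 5.48 ± 0.48 against control (edgeR adjusted p = 8.03e-05). Rlbp1, a retinaldehyde-binding protein, went the other way, from 3.71 ± 1.13 CPM in control to 0.565 ± 0.234 in MC903 and 0.800 ± 0.425 with paeonol (SD, n = 3).

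Pigmented hair is made in the growing bulb, where melanocytes sit among the matrix cells. Of 20 tested markers of that bulb, 4 were higher and 4 lower in MC903 against control, with a median log2 change of -0.88, beside 23% and 23.8% of all genes. With paeonol against MC903, 3 were higher and 1 lower (median 0.71), and with paeonol against control 5 higher and 1 lower (0.04). Tchh, the trichohyalin of the inner root sheath and of stressed epidermis, was at 11.0 ± 2.82 CPM in control, 691 ± 62.7 in MC903 and 749 ± 462 with paeonol (SD, n = 3). Dlx3 was higher with paeonol than in MC903 by a log2 change of 0.64 ± 0.16 (edgeR adjusted p = 0.0105).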
